A study of Mus musculus with 8 samples.

Results

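The subunit genes of RNA polymerases I, II and III were examined in activated CD8 T cells with and without a guide against Elovl1. Members were chosen by gene symbol, as those starting with Polr1, Polr2 or Polr3, and selected on a count of at least 10 in every column of the table. Of 33 symbols with these letters, 2 pseudogenes (Polr2d-ps1 and Polr2k-ps) and Polr1has, an antisense transcript at Polr1h that is counted on its own strand, were left out. The minimum removed none of the 30 that were left, whose lowest count in any column was 434 (Polr3d) and whose highest was 10274 (Polr2a). These 30 are all the members, out of 56805 genes in the table, and all 30 were tested.

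The cells were OT-I T cells of C57BL/6J background, which carry 1 transgenic receptor for an ovalbumin peptide and express Cas9 from the Rosa26 locus. They were activated in culture and transduced with a lentivirus that carried the CD90.1 reporter and either a non-targeting guide (sgNT, the control) or a guide against Elovl1 (sgElovl1). CD90.1+ cells were sorted 3 days after transduction, so that both conditions shared Cas9, the vector and the sort. Each condition was prepared in 2 experiments with 2 replicate mice, which makes 8 samples. The deposited table has 4 columns, each the sum of 2 samples: sgNT and sgElovl1 of experiment 1, and sgNT and sgElovl1 of experiment 2. The spread between mice inside a column is therefore lost, and all tests rest on 4 columns. The guide makes a mixed population of edited cells and not a clone, and the mice were not split by sex.

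Total counts per column lay between 49068952 and 63623476. Elovl1, which makes saturated very long-chain fatty acids, was at 110 CPM (counts scaled to a common library size) in sgNT and 61.3 in sgElovl1 of experiment 1, and at 93.5 and 55.8 in experiment 2, in the direction the labels give. On the log2 scale the difference came to -0.80 (SE 0.07; edgeR, adjusted p = 3.8e-28). All 10 CD8 T cell markers looked up were at 51.9 CPM or more in every column, with summed levels of 6171 and 5912 CPM in experiment 1 and 6924 and 6789 CPM in experiment 2 (sgNT and sgElovl1 in turn). Of 18 markers of other cell types, 5 (Ms4a1, Ncr1, Siglech, S100a8 and Hbb-bs) were at 0 in every column and 11, these included, stayed under 1 CPM everywhere. Their summed level was 44.4 and 52.0 CPM in experiment 1 and 75.1 and 77.5 CPM in experiment 2, so it was higher in experiment 2. Pecam1 made up the largest part of it, at 24.7 and 29.7 CPM in experiment 1 and 48.9 and 50.8 CPM in experiment 2. The part of these markers in the differences below was not tested.

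Cells divide transcription among 3 nuclear RNA polymerases. Pol I copies the large ribosomal RNA precursor in the nucleolus, Pol II makes messenger RNAs and many non-coding RNAs, and Pol III makes transfer RNAs, the small ribosomal RNA and other short RNAs. Each is a multi-subunit enzyme with a pair of large catalytic subunits of its own. Polr1c and Polr1d serve both Pol I and Pol III, and Polr2e, Polr2f, Polr2h, Polr2k and Polr2l serve all 3. Resting T cells raise ribosome and transfer RNA production when they are activated, which calls on Pol I and Pol III. The members are 5 genes of Pol I alone, 2 of Pol I and III, 8 of Pol II, 5 of all 3 and 10 of Pol III. The messenger RNA of a subunit was measured here, not the enzyme or its activity.

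Stretches upstream of the transcription start are shown for the 6 members on which the comparisons below turn: the paralogs Polr3gl and Polr3g, Polr3c, Polr1b with the largest difference between experiments, and the subunits Polr2h and Polr2l that differed between guides. Each is the 250 bases before the RefSeq start in GRCm38.p6 (for Polr2h, the first of its starts in the table), an earlier build than the GRCm39 used for the counts. In order they lie at chr3:96594182-96594431 (minus strand), chr13:81711014-81711263 (minus), chr3:96727440-96727689 (minus), chr2:129100746-129100995 (plus), chr16:20717576-20717825 (plus) and chr7:141475154-141475403 (minus), and all are written 5′ to 3′ on the strand of the gene. Capitals mark an exact match, on either strand, to an E-box (CACGTG), a GC box (GGGCGG, or CCGCCC on the other strand) or an ETS core (CCGGAAG, or CTTCCGG on the other strand); a TATA box (TATAAA) was also sought, and no 2 of these motifs overlapped in these windows.
Polr3gl: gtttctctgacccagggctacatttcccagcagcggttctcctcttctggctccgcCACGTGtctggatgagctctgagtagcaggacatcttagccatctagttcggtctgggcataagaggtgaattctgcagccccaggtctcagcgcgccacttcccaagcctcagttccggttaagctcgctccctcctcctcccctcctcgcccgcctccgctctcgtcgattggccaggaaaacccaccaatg
Polr3g: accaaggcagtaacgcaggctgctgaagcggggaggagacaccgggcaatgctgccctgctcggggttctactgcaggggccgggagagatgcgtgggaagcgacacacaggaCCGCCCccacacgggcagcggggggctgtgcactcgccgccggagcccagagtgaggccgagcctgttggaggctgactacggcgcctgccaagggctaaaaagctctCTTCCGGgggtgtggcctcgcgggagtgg
Polr3c: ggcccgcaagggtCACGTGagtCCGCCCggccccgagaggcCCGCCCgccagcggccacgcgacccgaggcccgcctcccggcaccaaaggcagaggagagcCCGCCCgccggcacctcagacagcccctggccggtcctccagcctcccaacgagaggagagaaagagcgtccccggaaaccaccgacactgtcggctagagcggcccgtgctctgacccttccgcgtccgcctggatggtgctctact
Polr1b: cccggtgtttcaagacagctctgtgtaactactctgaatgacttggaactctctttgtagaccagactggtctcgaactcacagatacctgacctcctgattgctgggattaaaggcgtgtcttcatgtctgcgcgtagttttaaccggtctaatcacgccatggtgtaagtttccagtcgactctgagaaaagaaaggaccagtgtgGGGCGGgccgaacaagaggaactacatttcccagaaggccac
Polr2h: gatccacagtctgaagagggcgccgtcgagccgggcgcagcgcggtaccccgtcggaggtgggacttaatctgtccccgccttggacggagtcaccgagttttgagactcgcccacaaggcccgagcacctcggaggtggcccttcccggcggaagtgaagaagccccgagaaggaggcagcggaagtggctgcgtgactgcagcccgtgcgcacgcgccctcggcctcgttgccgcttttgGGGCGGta
Polr2l: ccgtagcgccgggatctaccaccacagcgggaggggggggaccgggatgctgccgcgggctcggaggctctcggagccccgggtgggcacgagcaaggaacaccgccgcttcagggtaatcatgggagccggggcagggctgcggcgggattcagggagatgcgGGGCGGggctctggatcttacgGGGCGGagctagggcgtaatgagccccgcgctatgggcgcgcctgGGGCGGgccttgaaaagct

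RefSeq promoter entries were found for 22 of the 30 members. The E-box was present upstream of Polr3gl and Polr3c and of no other member with an entry. This is 9.09% of the 22, near the 6.02% of 32851 promoters of the same length. The GC box was present upstream of 14 of the 22, against 32.7% of all promoters, including 3 matches each in Polr2a, Polr2e, Polr2l and Polr3c. A member with more than 1 entry (Polr2h and Polr2m) was counted if any entry matched, while the shares of all promoters are per entry. The ETS core was found for 5 (Polr1c, Polr2f, Polr2j, Polr3b and Polr3g), against 6.91%, and the TATA box for 2 (Polr2a and Polr2c), against 12.4%. A match is a string of letters and not a bound site, and the motifs were searched with the counts already known.

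The polymerases differed in the level of their subunit messenger RNAs, in an order that depends on the length used. Over the 4 columns the mean level per kilobase of exon was highest for Polr2f (83.0 CPM per kb), followed by Polr2e (63.8) and Polr1d (59.8), all of them shared between polymerases. It was lowest for Polr3f (3.46), Polr3g (4.15) and Polr3e (4.71), all of Pol III. The median per kilobase was 5.93 for Pol I alone, 43.6 for the pair shared by Pol I and III, 26.1 for Pol II, 24.9 for the subunits of all 3 and 6.79 for Pol III. Exon lengths came from GENCODE M21 on GRCm38, while the counts cover whole genes with introns. Per kilobase of the whole gene the order changed: Polr2e (19.0 CPM per kb), Polr2m (18.7) and Polr2i (14.4) were highest, Polr2f stood at 6.82 and Polr1d at 3.85, and Polr3b (0.349) and Polr3g (0.382) were lowest.

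**Figure D1:**
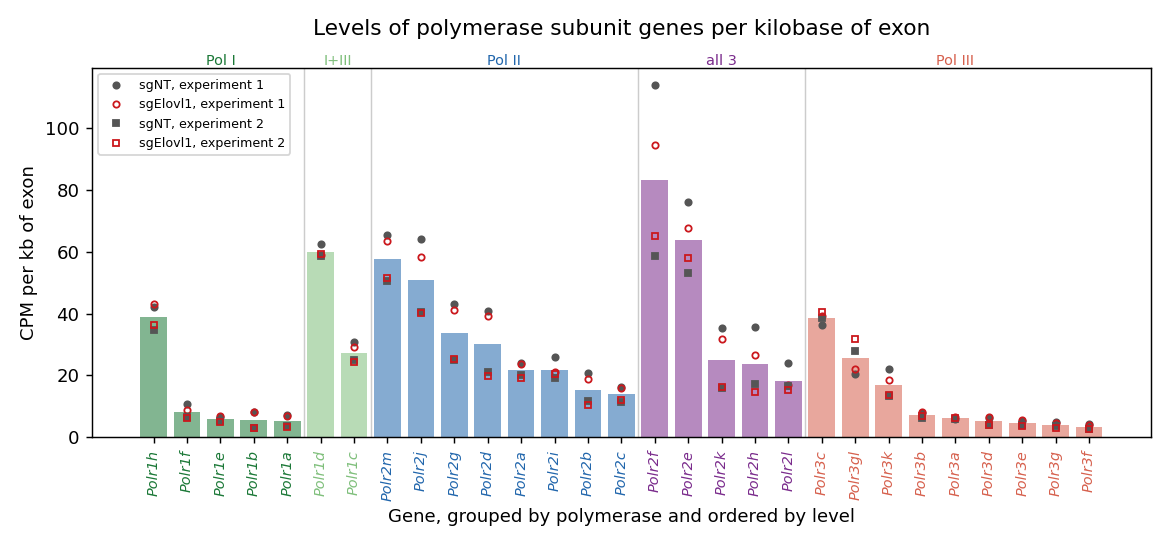
CPM per kilobase of exon (linear axis from 0) for 29 of the 30 subunit genes, grouped by polymerase and ordered by level. Bars are the mean of 4 columns and points the single columns (filled grey sgNT, open red sgElovl1, circles experiment 1, squares experiment 2). Polr2f stands highest at a mean of 83.0 and Polr3f lowest at 3.46.

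Within each enzyme the levels per kilobase of exon were uneven. In Pol I, Polr1h, a small subunit that takes part in RNA cleavage, had a mean of 39.0 CPM per kb, while the catalytic subunits Polr1a and Polr1b had 5.22 and 5.63. Polr1e, which forms a pair with the product of Cd3eap, had 5.93, and Polr1f, which contacts the initiation factor encoded by Rrn3, had 8.16. These last 4 were spread over less than the range between columns: Polr1b alone ran from 2.97 to 8.25.

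In Pol II, Polr2m, an associated subunit that restrains the enzyme, and Polr2j had the highest means, 57.7 and 50.7 CPM per kb. The catalytic pair Polr2a and Polr2b had 21.8 and 15.4, and their columns did not overlap for experiment 2 (20.3 and 19.2 against 11.8 and 10.4) nor, in experiment 1, for either guide (24.1 and 23.7 against 20.7 and 18.9). Polr2c, which pairs with Polr2j in the assembly of the enzyme, had the lowest mean of the 8, 14.0. In Pol III, Polr3c (38.6) and Polr3gl (25.6) stood above the other 8 per kilobase of exon, of which Polr3k, a subunit for termination and RNA cleavage, was the highest at 17.0. Per kilobase of the whole gene Polr3k (7.71) was above Polr3c (6.74), and Polr3d (2.40) above Polr3gl (2.24), and in Pol II Polr2b (1.63) and not Polr2c (4.11) was the lowest.

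The 2 experiments were compared first, since they separated the members most: the first principal component of the 30 genes held 96.1% of their variance and divided the columns by experiment. Over all genes tested the first component held 73.9% and divided the columns in the same way. In experiment 2, 26 of the 30 subunit genes were lower than in experiment 1 and 1 was higher, each past an adjusted p of 0.05. Among all 16006 genes tested 29.2% were lower and 26.4% higher, 55.6% in all. The median log2 fold change was -0.48 over the members and -0.00 over all genes tested. Experiment here stands for everything that differed between the 2 rounds, including cells, culture, sort and library, and these cannot be told apart. In bulk RNA, fewer cells of one state and less RNA per cell cannot be told apart either.

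**Figure D2:**
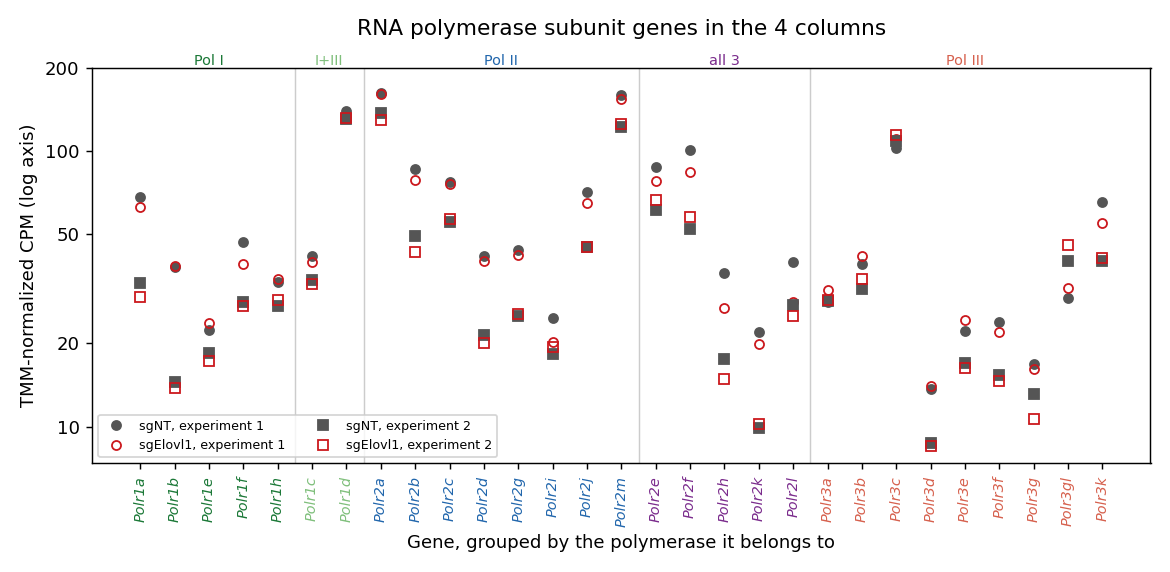
TMM-normalized CPM (log axis) of 29 of the 30 subunit genes in each column, grouped by polymerase; filled grey is sgNT, open red is sgElovl1, circles are experiment 1 and squares experiment 2. For most genes both circles lie above both squares; Polr3gl lies the other way, from 29.1 and 31.7 CPM in experiment 1 to 39.7 and 45.5 in experiment 2.

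All 5 subunits of Pol I alone were lower in experiment 2 in edgeR. Polr1b, a catalytic subunit, was at 37.7 (sgNT) and 38.2 CPM (sgElovl1) in experiment 1 and at 14.5 and 13.7 CPM in experiment 2. The experiments did not overlap and the guides were close to each other within each. Its log2 fold change of -1.43 (SE 0.09, adjusted p = 5.19e-58 in edgeR) left 37.2% of the level, the largest difference of any member. Polr1a, the other catalytic subunit, was at 67.6 and 62.4 CPM in experiment 1 and at 33.0 and 29.6 CPM in experiment 2, a log2 fold change of -1.05 (SE 0.07). The remaining members fell by less, Polr1f by 0.62, Polr1e by 0.37 and Polr1h by 0.27 on the log2 scale. Polr1h did not pass in DESeq2 (adjusted p = 0.0780, Wald test) or without sgNT of experiment 2 (-0.22, adjusted p = 0.174 in edgeR), nor Polr1e without sgElovl1 of experiment 2 (-0.33, adjusted p = 0.0544). Cd3eap, an older symbol of Polr1g and therefore outside the choice by name, was added after its values were seen: it was at 27.9 and 24.6 CPM and then at 11.2 and 11.0 CPM (-1.24, SE 0.10).

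Of the pair shared by Pol I and III, which helps to assemble both enzymes, Polr1c fell from 41.5 and 39.5 CPM to 33.9 and 32.8 CPM (-0.28, SE 0.08). Polr1d did not pass the test, at 139 and 131 CPM in experiment 1 and 130 and 131 CPM in experiment 2 (-0.05, SE 0.06, adjusted p = 0.568 in edgeR). The median of the pair was -0.16, beside -0.62 for the 5 genes of Pol I alone.

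All 8 Pol II subunits were lower in experiment 2 in edgeR, with a median of -0.53. Polr2d, part of the stalk of the enzyme, was at 41.5 and 39.9 CPM and then at 21.5 and 20.1 CPM (-0.97, SE 0.08). Its stalk partner Polr2g had -0.74 (SE 0.08). The catalytic pair was unequal, with -0.83 (SE 0.07) for Polr2b, from 85.6 and 78.2 CPM to 48.9 and 43.0 CPM, and -0.28 (SE 0.06) for Polr2a, from 162 and 160 CPM to 137 and 129 CPM. Polr2a carries the long tail whose phosphorylation marks initiation and elongation. The others were Polr2j at -0.60, Polr2c at -0.45, Polr2m at -0.34 and Polr2i, which aids accurate RNA synthesis, at -0.25 (adjusted p = 0.0129 in edgeR). The call for Polr2i was the least stable: its value was -0.44 between the sgNT and -0.07 between the sgElovl1 columns, it was -0.097 without sgNT of experiment 1 (adjusted p = 0.515 in edgeR), and it did not pass in DESeq2 (adjusted p = 0.214, Wald test).

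All 5 subunits common to the 3 enzymes were lower in experiment 2, with a median of -0.75. Polr2k went from 22.0 and 19.9 CPM to 9.87 and 10.2 CPM (-1.06, SE 0.11). Of the 50-base stretches in its transcripts, 21.6% also occur in transcripts of other genes, so a part of its reads may be uncertain. The same caution applies to Polr2c (11.2%) and Polr1d (10.8%) above. Polr2h went from 36.1 and 27.0 CPM to 17.6 and 14.9 CPM (-0.95, SE 0.09). For Polr2k and Polr2h the experiments did not overlap. Polr2f had -0.75 (SE 0.07), Polr2e -0.37 (SE 0.07) and Polr2l -0.35 (SE 0.08), and for these 3 the value was -0.96, -0.52 and -0.53 between the sgNT columns and -0.54, -0.23 and -0.17 between the sgElovl1 columns. In all 5 it was farther from 0 between the sgNT columns, a contrast that was not tested. Other members also had this, among them Polr1f, Polr2g, Polr2j and Polr3k, while Polr1a, Polr2b and Polr3e went the other way. The contrast is the same quantity as the guide difference of experiment 2 minus that of experiment 1, given further below. Without sgNT of experiment 1 Polr2l had -0.093 and did not pass (adjusted p = 0.491 in edgeR).

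**Figure D3:**
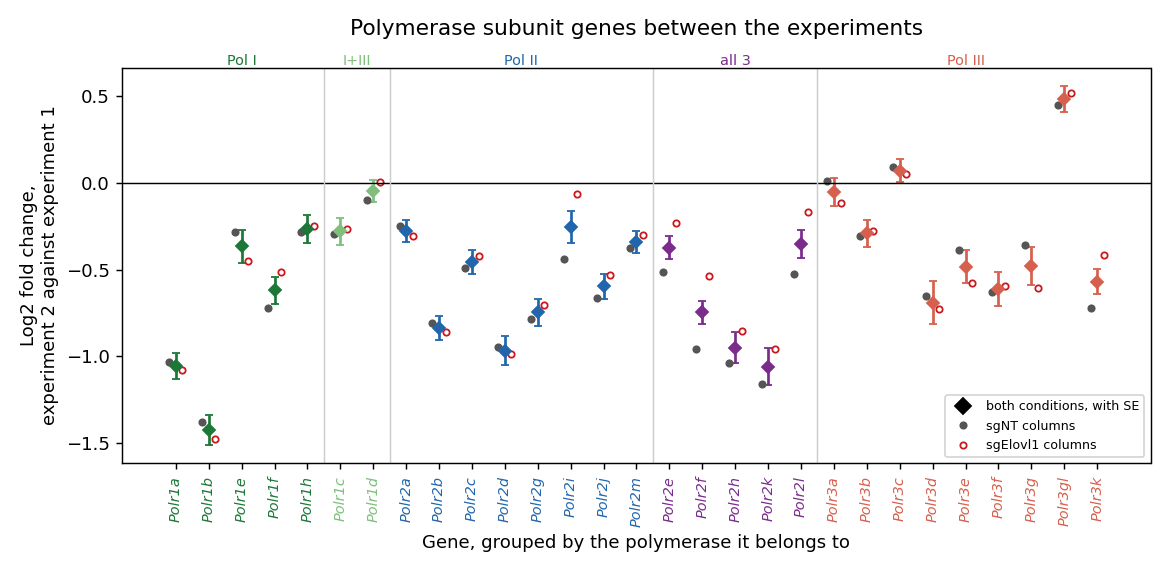
Log2 fold change of experiment 2 against experiment 1 for 29 of the 30 subunit genes by polymerase; diamonds with bars are the fitted value and its SE, and small points the sgNT (filled) and sgElovl1 (open) columns taken alone. Polr1b lies lowest at -1.43, and Polr3gl, at 0.48, is the member with an adjusted p under 0.05 above 0.

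Pol III was the mixed enzyme: 7 of its 10 genes were lower, 1 was higher and 2 did not pass, with a median of -0.48. Polr3d, of a part used in initiation and termination, fell by 0.69 on the log2 scale, Polr3f by 0.61, Polr3k by 0.57, and Polr3e and its fellow Pol III subunit Polr3g by 0.48 each. Polr3b fell by 0.29, from 38.9 and 41.6 CPM to 31.5 and 34.4 CPM, while its catalytic partner Polr3a was at 28.3 and 31.2 CPM and then 28.6 and 28.8 CPM (-0.05, SE 0.08, adjusted p = 0.627 in edgeR). Polr3c, of the initiation subcomplex, was at 102 and 110 CPM and then at 109 and 114 CPM (0.07, SE 0.07, adjusted p = 0.366). Crcp, a Pol III stalk subunit outside the choice by name, had -0.16 (SE 0.08, adjusted p = 0.0661).

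Polr3gl and Polr3g encode alternative versions of the same Pol III subunit, which joins Polr3c and Polr3f in the initiation subcomplex. Polr3gl is the widely expressed form, and Polr3g is known from embryonic stem cells and tumour cells. Polr3gl was at 29.1 and 31.7 CPM in experiment 1 and at 39.7 and 45.5 CPM in experiment 2 (0.48, SE 0.08, adjusted p = 1.16e-09 in edgeR). Polr3g moved the other way, from 16.9 and 16.2 CPM to 13.2 and 10.6 CPM (-0.48, SE 0.11, adjusted p = 3.47e-05 in edgeR). Neither overlapped between experiments. Polr3gl held 63.3% of the counts of both genes in sgNT and 66.3% in sgElovl1 of experiment 1 (exact 95% intervals 61.5 to 65.1 and 64.4 to 68.1). In experiment 2 it held 75.1% and 81.1% (73.4 to 76.8 and 79.7 to 82.4), where the intervals cover counting error only. No stretch of 50 bases in GENCODE M21 transcripts was common to the 2 genes. The E-box printed above lies upstream of Polr3gl and not of Polr3g. It also lies upstream of Polr3c, which did not pass between experiments (0.07, adjusted p = 0.366 in edgeR). Whether the motif bears on any of these levels was not tested.

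**Figure D4:**
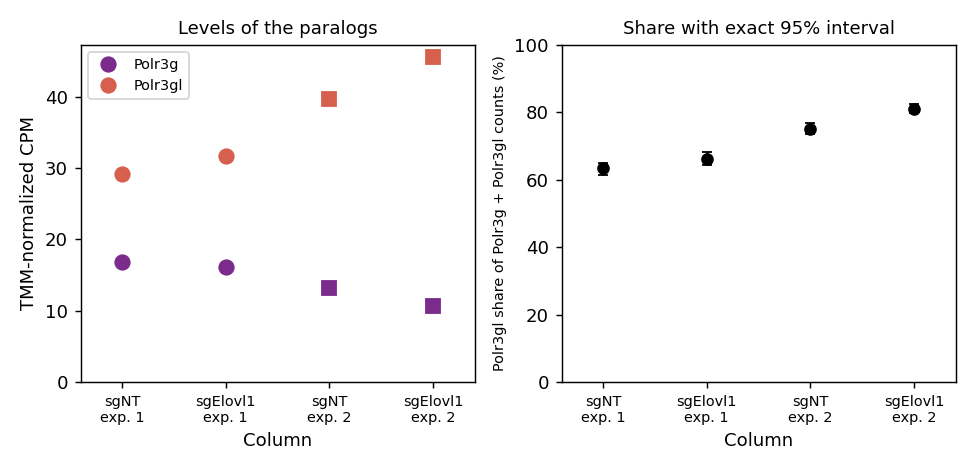
Left, TMM-normalized CPM of Polr3g and Polr3gl in the 4 columns (circles experiment 1, squares experiment 2). Right, the share of Polr3gl in the counts of both genes with exact binomial 95% intervals for counting error; it lies at 63.3% and 66.3% in experiment 1 and at 75.1% and 81.1% in experiment 2.

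Outside the nuclear enzymes, Polrmt, the single-subunit polymerase of mitochondria, was higher in experiment 2, from 31.9 and 32.9 CPM to 39.7 and 36.5 CPM (0.23, SE 0.08, adjusted p = 0.00505 in edgeR). Its value was uneven, 0.32 between the sgNT and 0.15 between the sgElovl1 columns, and ran from 0.19 to 0.29 with a column left out.

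Factors that work with the polymerases were counted from lists of their known members, to be read against the 29.2% of all genes that were lower and the 26.4% that were higher. Of 11 Pol I factors 7 (63.6%) were lower and 2 higher in experiment 2, among them Nolc1 (-1.24), a nucleolar assembly protein, the helicase Ddx21 (-0.82), the initiation factor Rrn3 (-0.56) and Tcof1 (-0.49). Of 31 general Pol II factors 20 (64.5%) were lower and 6 higher, including the TFIIE subunit Gtf2e2 (-1.35), cyclin H (Ccnh, -0.84), the TFIIF subunit Gtf2f2 (-0.73) and, upwards, Taf8 (0.67) of TFIID. Of 27 pausing and elongation factors 14 (51.9%) were lower and 7 (25.9%, near the share of all genes) higher, with Tcea1 (-0.85), Leo1 (-0.72) and the histone chaperone Ssrp1 (-0.70) lower and Hexim1 (0.79), which holds the elongation kinase inactive, higher.

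Of 16 Pol III factors 5 (31.2%) were lower and 3 (18.8%) higher, near the share of all genes for the lower ones. Brf1, the TFIIIB subunit used at transfer RNA genes, was at 86.7 and 95.8 CPM in experiment 1 and at 148 and 170 CPM in experiment 2 (0.80, SE 0.06). Gtf3c6 (-0.65), Gtf3c5 (-0.44) and Snapc2 (-0.43) were lower. Of 11 assembly and import factors 4 (36.4%) were lower, also near that share, and 1 was higher. The chaperone ATPases Ruvbl1 (-0.92) and Ruvbl2 (-0.81) and their partner Rpap3 (-0.75) were lower and Rpap2 (0.23) higher. Rpap2 was uneven, with 0.09 between the sgNT and 0.36 between the sgElovl1 columns. The medians of the 5 lists, in this order, were -0.31, -0.22, -0.16, -0.15 and -0.16, each nearer to 0 than the median over the subunit genes.

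The comparison of sgElovl1 with sgNT, which is what the study was built for, gave fitted values between -0.34 and 0.16 for the same genes. With experiment as a term, 2 of the 30 members were lower in sgElovl1 cells and none was higher, where 0.437% of all genes tested were lower and 1.2% differed in either direction. Without adjustment 5 members had a p under 0.05, as had 10.6% of all genes. The median over the members was -0.05, beside -0.01 over all genes.

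Both genes that passed belong to all 3 polymerases. Polr2h was at 36.1 CPM in sgNT and 27.0 in sgElovl1 of experiment 1 and at 17.6 and 14.9 in experiment 2, lower with the Elovl1 guide in both (-0.42 and -0.24). The fit gave -0.34 on the log2 scale (SE 0.09; edgeR, adjusted p = 0.0191), which left 79.3% of the sgNT level. Polr2l was at 39.6 and 28.2 CPM in experiment 1 and at 27.5 and 25.1 in experiment 2 (-0.49 and -0.13), with a fitted value of -0.32 (SE 0.08, adjusted p = 0.0153 in edgeR). For Polr2h the sgElovl1 column of experiment 1 lay above the sgNT column of experiment 2, and for Polr2l it was close to it, so the guides separate only within an experiment. Neither gene passed in DESeq2 (adjusted p = 0.764 and 0.818, Wald test) or without the filter on low counts (0.0640 and 0.0622). Of 50-base stretches in their transcripts, 8.72% for Polr2h and 20.9% for Polr2l also occur in transcripts of other genes, so a part of their reads may be uncertain.

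**Figure D5:**
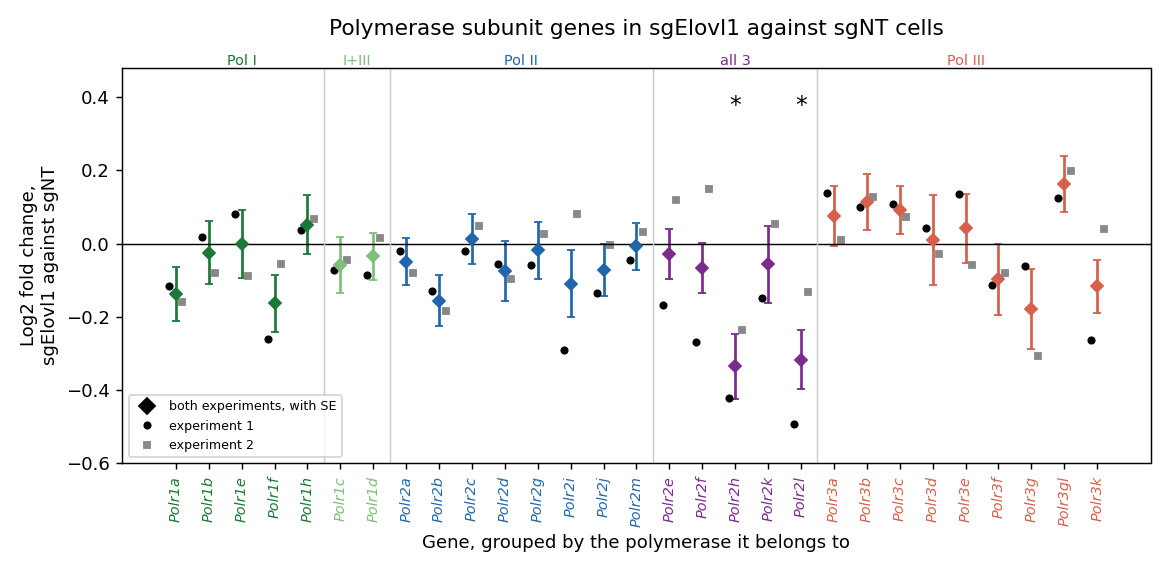
Log2 fold change of sgElovl1 against sgNT for 29 of the 30 subunit genes by polymerase; diamonds with bars are the fitted value and its SE, black circles experiment 1 and grey squares experiment 2, and asterisks mark an adjusted p under 0.05 in edgeR. The asterisks stand over Polr2h (-0.34) and Polr2l (-0.32), and for 13 genes the circle and the square lie on opposite sides of 0.

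The other members shared by all 3 enzymes did not pass. Polr2f had -0.27 in experiment 1 and 0.15 in experiment 2, Polr2e had -0.17 and 0.12, and Polr2k had -0.15 and 0.05. All 5 were thus below 0 in experiment 1, with a median of -0.27, and 2 of 5 in experiment 2, with a median of 0.05. This was not particular to them. In experiment 1 all 8 genes of Pol II and the 2 of Pol I and III were also below 0. So were 2 of 5 in Pol I and 4 of 10 in Pol III, which makes 21 of the 30 members. The share over all genes was not computed. Among the other classes the medians over both experiments were -0.03 for Pol I, -0.05 for the pair of Pol I and III, -0.06 for Pol II and 0.03 for Pol III, with no member past the threshold. In Pol II, Polr2b came nearest to it (-0.16, SE 0.07, adjusted p = 0.371 in edgeR), and its value was below 0 in both experiments.

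In Pol III, 6 of 10 genes were above 0, with a median of 0.03, where 7442 of all 16006 genes tested were above 0. Polr3gl was 0.12 in experiment 1 and 0.20 in experiment 2 (fitted 0.16, SE 0.08, adjusted p = 0.415 in edgeR) and Polr3g was -0.06 and -0.31 (fitted -0.18, SE 0.11, adjusted p = 0.589 in edgeR). Of the 96 listed factors 1 passed (1.04%), a share near that of all genes (1.2%). Ruvbl1 was at 66.8 CPM in sgNT and 50.4 in sgElovl1 of experiment 1, and at 34.3 and 27.6 CPM in experiment 2 (-0.36, SE 0.07, adjusted p = 0.000484 in edgeR). It did not pass in DESeq2 (adjusted p = 0.218, Wald test, and 0.197, likelihood-ratio test) or without the experiment term. Its product helps to assemble RNA polymerases and other large complexes. The smallest p in the other lists belonged to Nolc1 (-0.18), Gtf2f2 (-0.20), Cdc73 (-0.23), a subunit of the Paf1 elongation complex, and Brf1 (0.17), with adjusted p from 0.197 to 0.226 in edgeR.

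In an alternative chosen after seeing the data, 0.0887 of each gene's log2 difference between experiments, a slope common to all genes, was taken from the sgElovl1 columns. After this, Polr2h had -0.25 (adjusted p = 0.265 in edgeR) and Polr2l -0.29 (adjusted p = 0.0735), so neither passed, and the median over the members was 0.00. Ruvbl1 had -0.28 (adjusted p = 0.0381), which passed here, unlike in DESeq2.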

How the data were processed

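The 8 labelled samples are strand-specific messenger RNA libraries, sequenced paired-end on an Illumina instrument. Per the labels and the study's methods, the authors aligned reads to GRCm39 with STAR 2.7.10b and counted them per whole gene, introns included and on the reverse strand, with featureCounts 2.0.1 in R 4.3.3, then summed the replicate mice of an experiment and tested with DESeq2 1.42.0. For the annotation release, the version is not given in the sources used here. Raw counts are what the deposited table holds, for 56805 genes in 4 columns; 32132 genes have no count.

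Here, edgeR 4.0.16 was run on the deposited counts with TMM scaling, the filterByExpr filter (16006 genes left) and quasi-likelihood tests of condition and of experiment in one additive model, with Benjamini-Hochberg adjustment over all genes and a threshold of 0.05. With 1 residual degree of freedom the spread is borrowed from all genes (common coefficient of variation 6.98%), and the p-values measure the spread between 4 summed columns. An exact permutation test of 2 columns against 2 cannot go below p = 0.333. CPM are TMM-normalized. Log2 values per experiment are plain ratios of these CPM, and a prior count of 2 was used only for the principal components and the permutation test. Depth was 49068952 to 63623476 counts per column, where 3 counts correspond to at most 0.0601 CPM.

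Levels per kilobase, shared 50-base stretches and promoters used GENCODE M21 (GRCm38) and RefSeq (GRCm38.p6) tables; 30 members had a gene model, 2 of them by an older symbol (Twistnb for Polr1f, Znrd1 for Polr1h). The steps were tested on simulated data. Alternatives were DESeq2 (size factors, Wald and likelihood-ratio tests), limma 3.58.1 with voom, upper-quartile scaling, scaling without the 20 most abundant and the mitochondrial genes, no filter or a mean of 5 CPM, the tested term alone and leaving out each column. Named genes were all members, Crcp, Polrmt and Elovl1, and from each other list up to 4 genes past the threshold with the smallest p in each comparison, or 1 where none passed. Members and lists were chosen with earlier results of these data known. The values of 1 member are not reported here, and counts and medians over the members include it.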

Additional observations from a re-analysis of the deposited data

Results flagged for a closer look

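For 14 of the 30 members the sgElovl1 difference from sgNT lay on opposite sides of 0 in the 2 experiments. The share over all genes was not computed, so the count cannot be read as a trait of these genes. With 1 column per group in each experiment there is no replicate left for the difference between the 2, which was not tested. For the 13 of these that are reported here by name, given as experiment 2 minus experiment 1 on the log2 scale, it was above 0 for Polr2f (0.42), Polr2i (0.37), Polr3k (0.30), Polr2e (0.29), Polr2k (0.20), Polr1d (0.10), Polr2g (0.085), Polr2m (0.075) and Polr2c (0.067). It was below 0 for Polr3e (-0.19), Polr1e (-0.17), Polr1b (-0.10) and Polr3d (-0.071). None of the 14 genes passed the test of sgElovl1 against sgNT over both experiments in edgeR.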

How the results depend on the processing

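The 27 members that differed between experiments became 22 to 27 over the alternatives and over leaving out each column, the lowest without sgElovl1 of experiment 2. Beside the losses given with the results, Polr1c, Polr2a, Polr2i and Polr3g were not called without sgElovl1 of experiment 2 (-0.26, -0.24, -0.30 and -0.33). Without sgNT of experiment 2, Polr1c, Polr2i and Polr3b were not called (-0.29, -0.20 and -0.21). Polr2i was also not called with the tested term alone (-0.26). The count for sgElovl1 against sgNT was less stable. It was 2 with every scaling tried and with limma-voom. It fell to 0 with no filter (4 members at an unadjusted p under 0.05), with the filter at a mean of 5 CPM (4), in DESeq2 by the Wald and the likelihood-ratio test (2 each), with the tested term alone (0), with each column left out (0 each time) and with the shift along the experiment difference removed (2), an alternative chosen after seeing the data. With a column left out, a model of both terms has no residual degree of freedom, so each term was fitted alone. The experiment difference then entered the condition term, and the guide difference the experiment term. Between guides the value of Polr2h ran from -0.85 to 0.25 and that of Ruvbl1 from -0.87 to 0.18. Elovl1 kept its sign but did not pass with the tested term alone (-0.80) or with a column left out (-0.89 to -0.68). Scaling moved the split of all sgElovl1 calls from 122 higher and 70 lower to 132 and 44 (DESeq2 size factors), 182 and 57 (upper quartile) and 173 and 44 (abundant genes left out). With upper-quartile scaling Polr3c was also called higher in experiment 2 and Polr2i was no longer called, with 2 higher and 25 lower members. The same held with the filter at a mean of 5 CPM. Values of members that had not passed changed sign under some setting other than leaving out a column for 8 members between guides and 2 between experiments, all within 0.08 of 0, and with a column left out for 26 between guides and 2 between experiments. No paired analysis was possible because the deposited columns sum the numbered replicates, and the pairing of columns by experiment is already a term of the main model.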

Other observations

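The transcript Polr1has, left out of the members by name, had 450 counts in sgNT and 425 in sgElovl1 of experiment 1, and 357 and 401 in experiment 2. The pseudogene Polr2d-ps1 had no count in any column, and Polr2k-ps had 8 counts in sgNT of experiment 1, 1 in sgNT of experiment 2 and 0 in both sgElovl1 columns.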
